A study of Mus musculus with 32 samples.

Results

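A set of 10 egg-made transcripts was followed through single mouse embryos: the 3 zona pellucida genes Zp1, Zp2 and Zp3, the growth factor genes Gdf9 and Bmp15, the oocyte-secreted protein genes Oosp1, Oosp2 and Oosp3, and the oocyte maturation genes Omt2a and Omt2b. They were chosen by symbol, and all 10 were among the 34223 genes of the deposited table. The zona pellucida is the glycoprotein coat that the growing oocyte secretes around itself, and it is the surface that sperm meet. GDF9 and BMP15 are ligands of the transforming growth factor beta family by which the oocyte instructs the granulosa cells around it. Their messages are made during oocyte growth, and the embryo clears much of the RNA stored in the egg while it starts its own transcription.

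The first group, Val_LNA (n = 16), carried an injected message for H3.3-GFP, histone H3.3 joined to green fluorescent protein, plus an oligonucleotide with locked nucleic acid (LNA) bases that is antisense to tRFValCAC. tRFValCAC is a piece of a valine transfer RNA. The control group, Ctrl_LNA (n = 16), carried the same message with a scrambled LNA oligonucleotide. Both groups were wild type by genotype, were picked for GFP and were harvested as late 2-cell embryos 28 h post-IVF (in vitro fertilization). Each library was 1 embryo. Matings and injection days are not labelled, so each p-value covers only the spread among these embryos, which may be partly technical, and fewer cells and less RNA per cell cannot be told apart in them.

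The embryos held 2592925 to 6259870 recovered reads. Of the 12 transcripts listed as markers of the zygotic 2-cell stage, 12 were tested and 0 had a group median of 0. One control, Ctrl_LNA 48, stood apart: 7276 genes were detected in it, against 16687 to 20200 in the other 31 embryos. In that embryo 7 of the 10 transcripts were lower than in every other embryo, and the other 3 (Zp3, Omt2a and Omt2b) were higher than in every other control. The main results are therefore given with and without it. Markers of granulosa and cumulus cells, which surround the egg, summed to 79.8 to 2272 normalised counts in Val_LNA and 221 to 3090 in Ctrl_LNA over 15 genes. Of those 15, 11 in Val_LNA and 10 in Ctrl_LNA had a group median of 0, among them Foxl2, Fshr and Cyp19a1, while Amhr2, the receptor for anti-Müllerian hormone, had a median of 542 in Val_LNA and 537 in Ctrl_LNA. The part of such cells in the results below was not tested.

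Omt2b was the single transcript of the 10 that passed the test. In limma on log2(normalised count + 1), over the 15559 genes with a normalised count of at least 10 in at least 8 embryos, 10 of 10 were tested, of which 0 were higher and 1 was lower in Val_LNA at a Benjamini-Hochberg adjusted p under 0.05. Over all tested genes, 0.881% were called higher and 1.31% lower. At an unadjusted p under 0.05, 2 of the 10 were higher and 1 was lower, against 8.88% and 5.85% of all tested genes. With edgeR's quasi-likelihood test 0 were higher and 1 was lower at the adjusted threshold (all genes 0.186% higher and 1.08% lower). At an unadjusted p under 0.05, edgeR gave 0 higher, against 3.85% of all tested genes. The DESeq2 test gave 0 higher and 1 lower at the adjusted threshold (all genes 1.32% and 2.17%). At an unadjusted p under 0.05, DESeq2 gave 2 higher, against 7.82% of all tested genes. The median log2 fold change of the 10 was 0.75, against 0.26 over all tested genes. Without Ctrl_LNA 48 these were 0.41 and 0.07, again with 0 called higher and 1 lower (all genes 1.58% and 2.61%), and 4 higher at an unadjusted p under 0.05 (all genes 8.28%). After centring every embryo on its median gene, the median was 0.30 for the 10 and -0.19 over all genes (0.33 and -0.004 without Ctrl_LNA 48). With edgeR the median was 0.28 and 0.04. It was 0.24 for the 10 in the lower runs of library numbers, described below, and 1.46 in the upper runs, which hold Ctrl_LNA 48 (0.60 without it), against all-gene medians of 0.03, 0.44 and 0.07. The ranges of the groups overlapped for each of the 10 transcripts. The same was not counted over all genes, so this is a description only. The 10 transcripts together took 0.381% to 0.939% of an embryo's normalised counts in Val_LNA, median 0.642%, and 0.363% to 0.879% in Ctrl_LNA, median 0.545%.

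**Figure D1:**
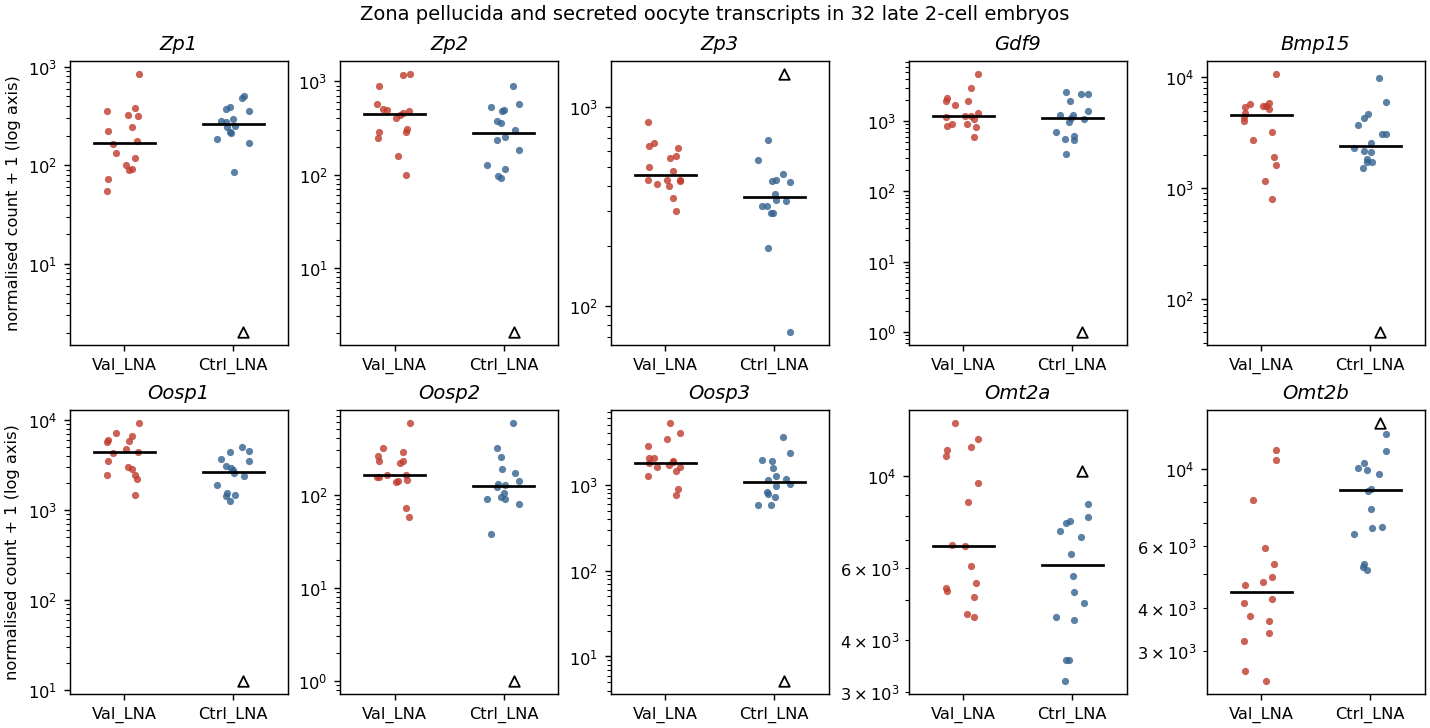
Normalised count plus 1 of each of the 10 transcripts (log axis, 1 panel each, scales differ) in 16 Val_LNA and 16 Ctrl_LNA embryos. Points are embryos, bars are group medians and the open triangle is Ctrl_LNA 48. Omt2b had a median of 4425 in Val_LNA and 8686 in Ctrl_LNA, and the triangle lies below every other point in 7 panels.

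Omt2a and Omt2b lie close together and are named for oocyte maturation. In GRCm38 (mm10), with the GENCODE M21 annotation, Omt2a (ENSMUSG00000066463.13) spans chromosome 9, 78311972 to 78314796, minus strand, and Omt2b (ENSMUSG00000038750.12) spans 78327589 to 78329620 of the same chromosome, plus strand. The last 200 coding bases of each (101 to 300 in Omt2a, 158 to 357 in Omt2b) are shown because they end alike. The capitals mark the longest run of identical coding bases, which closes both sequences.
Omt2a-203: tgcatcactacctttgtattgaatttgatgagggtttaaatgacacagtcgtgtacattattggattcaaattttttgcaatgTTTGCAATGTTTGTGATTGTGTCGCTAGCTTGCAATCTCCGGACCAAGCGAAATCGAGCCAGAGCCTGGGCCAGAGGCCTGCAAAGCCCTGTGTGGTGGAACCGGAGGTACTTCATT
Omt2b-201: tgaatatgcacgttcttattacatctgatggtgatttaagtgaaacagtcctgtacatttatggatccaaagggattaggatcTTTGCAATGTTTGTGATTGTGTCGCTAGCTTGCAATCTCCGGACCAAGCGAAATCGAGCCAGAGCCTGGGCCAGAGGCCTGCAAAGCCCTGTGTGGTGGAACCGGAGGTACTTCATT
The shared run is 117 bases of a coding sequence of 300 bases in Omt2a and 357 in Omt2b. Over the whole of both transcripts, coding or not, the longest identical run is 260 bases. Of 291 aligned coding positions, 236 (81.1%) were identical. Of all 50-base stretches of the annotated transcripts, 575 occur in both genes, which is 36.98% of those of Omt2a and 35.2% of those of Omt2b. How reads that match both genes were counted is not given in the sources used here, so the values of both are uncertain by whatever share was split, dropped or doubled.

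Omt2b had 2466 normalised counts in the lowest, 4425 in the median and 11292 in the highest Val_LNA embryo, against 5122, 8686 and 13496 in Ctrl_LNA embryos. Of the 16 Val_LNA embryos, 14 lay below the control median and 11 below the lowest control other than Ctrl_LNA 48. The means were 5186 ± 2625 in Val_LNA, against 8616 ± 2590 in Ctrl_LNA (SD, n = 16 each). Omt2b fell in Val_LNA, with a log2 fold change of -0.81 (SE 0.19, 95% interval -1.19 to -0.43, limma adjusted p = 0.0108). Without Ctrl_LNA 48 it was -0.77 (adjusted p = 0.0126, limma). The library numbers form unbroken runs, which the labels do not call batches. In the lower runs (Val_LNA 1 to 8, Ctrl_LNA 31 to 38) the value was -0.89 (limma adjusted p = 0.136), in the upper runs (13 to 20, 43 to 50) -0.73 (limma adjusted p = 0.353) and there without Ctrl_LNA 48 -0.61 (limma adjusted p = 0.283), so neither run alone passed the test. In these fits 0 of the 10 transcripts were called lower, against 0.533%, 0.212% and 0.797% of all tested genes. Centring each embryo on its median gene gave -1.26 (limma adjusted p = 0.168), with 0 of the 10 called lower against 1.93% of all genes, and the same without Ctrl_LNA 48 gave -0.84 (limma adjusted p = 0.00303).

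Omt2a had 4550 normalised counts in the lowest, 6786 in the median and 13458 in the highest Val_LNA embryo, against 3189, 6088 and 10273 in Ctrl_LNA embryos. The groups overlapped, and 7 of the 16 Val_LNA embryos lay above the highest control other than Ctrl_LNA 48. The log2 fold change was 0.36 (SE 0.18, 95% interval -0.01 to 0.73, limma adjusted p = 0.345), 0.42 without Ctrl_LNA 48 (limma adjusted p = 0.219) and -0.086 with centring on the median gene.

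Because the pair lay on opposite sides of 0, the share of Omt2b in their summed normalised count was computed, a measure chosen after the values were seen. The share was 22.2% in the lowest, 39.4% in the median and 56.2% in the highest Val_LNA embryo, against 55.9%, 58.6% and 62.1% in Ctrl_LNA embryos. Among the Val_LNA embryos, 15 lay below the lowest control. The means were 39.2% ± 11.2 in Val_LNA, against 58.6% ± 1.58 in Ctrl_LNA (SD, n = 16 each), so the share varied widely in one group and hardly in the other. The difference of -19.4 percentage points had p = 2e-05 in a two-sided permutation test, the smallest that this test gives with 100000 resamples, since it doubles the smaller tail. In the lower runs it was -21.6 points (exact permutation test, p = 0.000311, n = 8 and 8), and the upper runs gave -17.2 points (exact permutation test, p = 0.000155, n = 8 and 8). The log2 sum of both was 13.6 ± 0.481 in Val_LNA and 13.8 ± 0.469 in Ctrl_LNA, a difference of -0.17 (permutation test, p = 0.318).

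Within each group the correlation of the pair was also computed, again after the values were seen. Across the 16 controls Omt2a and Omt2b moved in step, with Pearson r = 0.988 and Spearman rho = 0.982 on the log2 scale (permutation p = 1e-05 for each, the smallest that 100000 resamples give where absolute correlations are compared, 2e-05 adjusted over the 2 groups). Without the 2 embryos farthest from the Omt2a median r was 0.986, and within the lower and upper runs it was 0.982 and 0.995. In Val_LNA r was 0.292 (permutation p = 0.273, adjusted 0.273) and rho 0.109 (permutation p = 0.687, adjusted 0.687). There r was -0.04 in the lower run and 0.838 in the upper run, and -0.07 without the 2 farthest embryos. The difference between the groups' correlations was not tested.

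Within Val_LNA the Omt2b share was set against 3 library measures, and against the same 3 in Ctrl_LNA, 6 relations in all. With the number of genes detected, r was -0.66 (permutation p = 0.00536, adjusted 0.0322) and rho -0.55 (permutation p = 0.0304, adjusted 0.182), and r was -0.61 without the 2 farthest embryos. Within the runs of Val_LNA r was -0.69 (exact permutation p = 0.0639, n = 8) and -0.59 (exact permutation p = 0.118, n = 8). The median number of genes detected was 18034 in Val_LNA and 18458.5 in Ctrl_LNA, and its part in the difference of the share was not tested. In Ctrl_LNA the relation had r = 0.199 and rho = -0.23, and r was -0.27 without the 2 farthest embryos, Ctrl_LNA 48 among them. With total reads r was 0.268 in Val_LNA and 0.194 in Ctrl_LNA, and with the mitochondrial share -0.06 in Val_LNA and 0.271 in Ctrl_LNA, with adjusted permutation p of at least 0.580 for r.

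**Figure D2:**
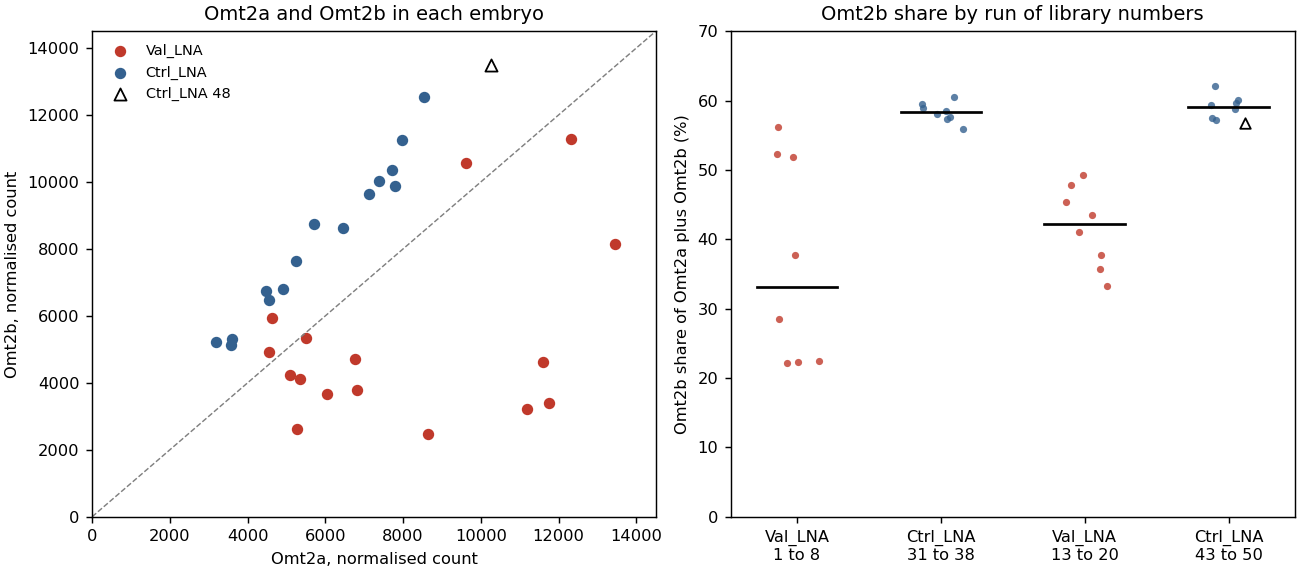
Left, normalised counts of Omt2a (x) and Omt2b (y) in each embryo, with a dashed line of equal counts. Right, the share of Omt2b in the summed count of both (%) by run of library numbers, with bars at the medians. The 16 controls follow one line and hold shares of 55.9% to 62.1%, while the Val_LNA embryos spread from 22.2% to 56.2%.

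RefSeq windows from 250 bases before to 50 after a gene start (GRCm38.p6) were used for 6 of the 10 genes, namely Zp3, Bmp15, Oosp1, Oosp2, Omt2a and Omt2b. Those of Omt2a (chr9:78313999-78314298, minus strand) and Omt2b (chr9:78327780-78328079, plus strand) are shown because this pair differed in their values. The RefSeq starts lie inside the GENCODE spans given above, 748 bases downstream of the outermost annotated start in Omt2a and 441 in Omt2b, so both windows lie within the span of longer annotated transcripts. The capitals mark E-boxes (CANNTG, which reads alike on both strands), the motif that the oocyte factor FIGLA is known to bind with its partner in zona pellucida genes.
Omt2a window: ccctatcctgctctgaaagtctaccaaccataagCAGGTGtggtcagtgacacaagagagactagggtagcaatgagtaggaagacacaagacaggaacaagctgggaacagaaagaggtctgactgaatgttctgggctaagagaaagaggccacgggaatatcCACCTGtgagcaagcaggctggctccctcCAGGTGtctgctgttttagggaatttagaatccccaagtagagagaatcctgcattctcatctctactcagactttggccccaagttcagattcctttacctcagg
Omt2b window: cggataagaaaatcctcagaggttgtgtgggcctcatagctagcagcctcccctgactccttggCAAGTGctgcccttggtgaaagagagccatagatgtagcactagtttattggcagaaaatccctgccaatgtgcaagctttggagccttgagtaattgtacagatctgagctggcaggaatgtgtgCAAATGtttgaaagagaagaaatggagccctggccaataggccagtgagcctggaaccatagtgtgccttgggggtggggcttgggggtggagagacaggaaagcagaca
There were 3 E-boxes in the Omt2a window and 2 in that of Omt2b, with 4 in Zp3, 5 in Oosp1, 1 in Oosp2 and 1 in Bmp15. An E-box occurs in 72.3% of the 32851 promoter windows, so holding one sets none of these apart. TAATTG, a motif of the type bound by the oocyte homeobox factor NOBOX, occurs in the Omt2b window and, read on both strands, in 2628 of the 32851 windows.

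The zona pellucida genes did not pass the main test and did not lie on one side. ZP1 links the filaments of the coat, ZP2 is the protein that is cut after fertilization to block further sperm, and ZP3 is a filament subunit with ZP2. Zp1 (ENSMUSG00000024734.8, chromosome 19, 10914287 to 10920632, minus strand) had 54.2 normalised counts in the lowest, 169 in the median and 845 in the highest Val_LNA embryo, against 1.05, 261 and 508 in Ctrl_LNA embryos. Its groups overlapped, and the lowest control was Ctrl_LNA 48, with 85.0 in the next. Its log2 fold change was -0.13 (SE 0.52, 95% interval -1.19 to 0.92, limma adjusted p = 0.918). It was -0.57 without Ctrl_LNA 48 (limma adjusted p = 0.355), and 0.12 in the upper runs.

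Zp2 (ENSMUSG00000030911.7, chromosome 7, 120126772 to 120145291, minus strand) had 98.5 normalised counts in the lowest, 445 in the median and 1202 in the highest Val_LNA embryo, against 1.05, 276 and 887 in Ctrl_LNA embryos. Of the 16 Val_LNA embryos, 13 lay above the control median. On the log2 scale the difference was 1.03 (SE 0.54, 95% interval -0.05 to 2.12, limma adjusted p = 0.363), and 0.59 without Ctrl_LNA 48 (limma adjusted p = 0.390).

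Zp3 (ENSMUSG00000004948.12, chromosome 5, 135980099 to 135988624, plus strand) had 301 normalised counts in the lowest, 455 in the median and 844 in the highest Val_LNA embryo, against 73.1, 354 and 1471 in Ctrl_LNA embryos. Its highest control was Ctrl_LNA 48, the embryo in which Zp1 and Zp2 had 1 read each. Among the Val_LNA embryos, 14 lay above the control median. The log2 fold change was 0.41 (SE 0.26, 95% interval -0.11 to 0.93, limma adjusted p = 0.447), 0.54 without Ctrl_LNA 48 (limma adjusted p = 0.157) and -0.037 with centring on the median gene. Weighting the embryos by their fit (array weights) called Zp1 lower (-0.96, limma adjusted p = 0.0445, all genes 3.62% lower) and Zp3 higher (0.59, limma adjusted p = 0.0455, all genes 2.27% higher). Zp3 varied least of the 10 in Val_LNA, with an SD of 0.380 on the log2 scale, against 0.734 in Ctrl_LNA without Ctrl_LNA 48.

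The growth factor genes did not pass the test. Gdf9 (ENSMUSG00000018238.6, chromosome 11, 53431023 to 53437904, plus strand) had 600 normalised counts in the lowest, 1177 in the median and 4720 in the highest Val_LNA embryo, against 0, 1095 and 2647 in Ctrl_LNA embryos. The value of 0 was in Ctrl_LNA 48, where 0 of 5122089 reads allows up to 3.15 normalised counts (3 reads, counting error only), and the next control had 337. Its log2 fold change was 0.97 (SE 0.65, 95% interval -0.34 to 2.28, limma adjusted p = 0.474), and 0.34 without Ctrl_LNA 48 (limma adjusted p = 0.580).

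Bmp15 (ENSMUSG00000023279.7, chromosome X, 6314107 to 6320721, minus strand) had 790 normalised counts in the lowest, 4597 in the median and 10718 in the highest Val_LNA embryo, against 49.4, 2415 and 9899 in Ctrl_LNA embryos. Of the 16 Val_LNA embryos, 12 lay above the control median and 2 below the lowest control other than Ctrl_LNA 48. On the log2 scale the difference was 0.65 (SE 0.45, 95% interval -0.25 to 1.56, limma adjusted p = 0.488), 0.29 without Ctrl_LNA 48 (limma adjusted p = 0.675) and -0.14 in the lower runs.

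The 3 Oosp genes lie in a row on chromosome 19 and encode proteins that the oocyte secretes. Oosp1 (ENSMUSG00000041857.10, 11667460 to 11691150, minus strand) had 1456 normalised counts in the lowest, 4350 in the median and 9209 in the highest Val_LNA embryo, against 11.6, 2642 and 4982 in Ctrl_LNA embryos. Among the Val_LNA embryos, 6 lay above the highest control. The log2 fold change was 1.11 (SE 0.50, 95% interval 0.10 to 2.13, limma p = 0.0327, adjusted p = 0.292), and 0.63 without Ctrl_LNA 48 (limma adjusted p = 0.141).

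Oosp2 (ENSMUSG00000055895.6, 11647279 to 11660559, minus strand) had 56.5 normalised counts in the lowest, 161 in the median and 585 in the highest Val_LNA embryo, against 0, 123 and 580 in Ctrl_LNA embryos. The 0 was again Ctrl_LNA 48, with the same limit of 3.15, and the groups otherwise covered much the same range. Its log2 fold change was 0.84 (SE 0.52, 95% interval -0.22 to 1.90, limma adjusted p = 0.447), and 0.40 without Ctrl_LNA 48 (limma adjusted p = 0.551).

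Oosp3 (ENSMUSG00000055933.13, 11697055 to 11711874, plus strand) had 764 normalised counts in the lowest, 1812 in the median and 5221 in the highest Val_LNA embryo, against 4.20, 1077 and 3579 in Ctrl_LNA embryos. Of the 16 Val_LNA embryos, 14 lay above the control median. On the log2 scale the difference was 1.17 (SE 0.52, 95% interval 0.12 to 2.22, limma p = 0.0301, adjusted p = 0.285), and 0.68 without Ctrl_LNA 48 (limma adjusted p = 0.141). Its exons share 57 bases (6.93%) with the pseudogene Gm19224 on the other strand (11703309 to 11704101), and since the library type does not mark strand, reads there cannot be told apart.

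**Figure D3:**
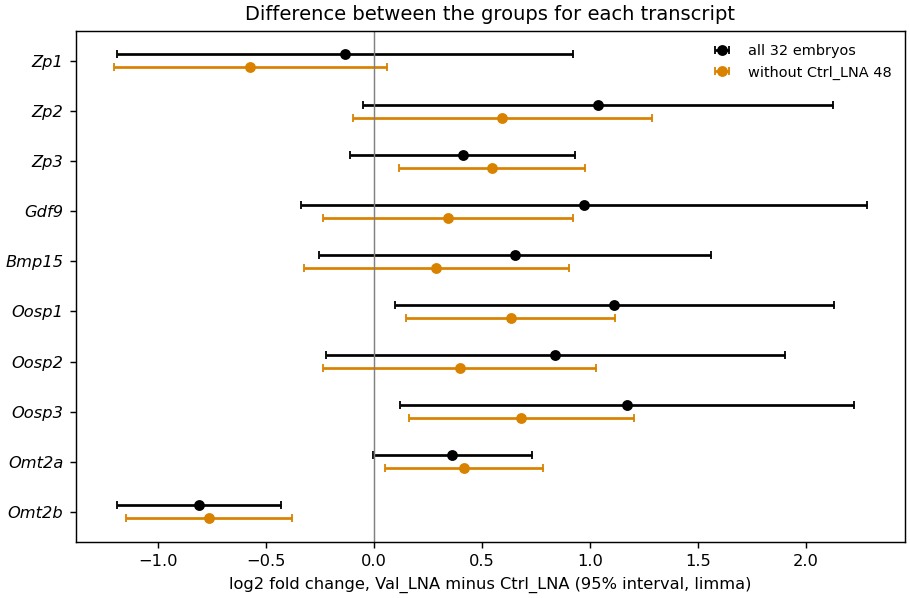
Log2 fold change of each transcript, Val_LNA minus Ctrl_LNA, with 95% intervals from limma, for all 32 embryos (black) and without Ctrl_LNA 48 (orange). Omt2b lies at -0.81 and -0.77, and the intervals of the 7 transcripts that were lowest in Ctrl_LNA 48 narrow without it.

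Whether the difference between the groups depended on the run was tested as an interaction in limma. It passed for 0 of the 10 transcripts and for 0 of the 15559 genes, with 808 genes at an unadjusted p under 0.05 (920 without Ctrl_LNA 48). For Omt2b the upper minus the lower difference was 0.16 (95% interval -0.61 to 0.93, limma adjusted p = 0.929). Without Ctrl_LNA 48 it was 0.28 (95% interval -0.48 to 1.05, limma adjusted p = 0.944). For Bmp15, which had the smallest p of the 10, the difference was 1.58 (95% interval -0.20 to 3.37, limma adjusted p = 0.817). Leaving out Ctrl_LNA 48 made it 0.86 (95% interval -0.34 to 2.05, limma adjusted p = 0.883).

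Per kilobase of exon, Omt2a, Omt2b, Oosp1 and Oosp3 had the highest levels, and Zp1 and Zp2 the lowest. Over all 32 embryos the median normalised count per kb was 4514 for Omt2a, 4012 for Omt2b, 3125 for Oosp1, 1927 for Oosp3, 1030 for Bmp15, 574 for Gdf9, 322 for Zp3, 218 for Oosp2, 134 for Zp2 and 117 for Zp1. Omt2a was above Omt2b in 13 of 16 Val_LNA embryos and in 0 of 16 Ctrl_LNA embryos. Zp2 was above Zp1 in 13 of 16 Val_LNA embryos and in 6 of 16 Ctrl_LNA embryos. These orders were counted and not tested. Over all embryos Oosp1 was above Oosp3 in 30 of 32. In Val_LNA the order began with Omt2a (4632), Oosp1 (4475), Omt2b (2862) and Oosp3 (2201). In Ctrl_LNA it began with Omt2b (5619), Omt2a (4156), Oosp1 (2718) and Oosp3 (1309).

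**Figure D4:**
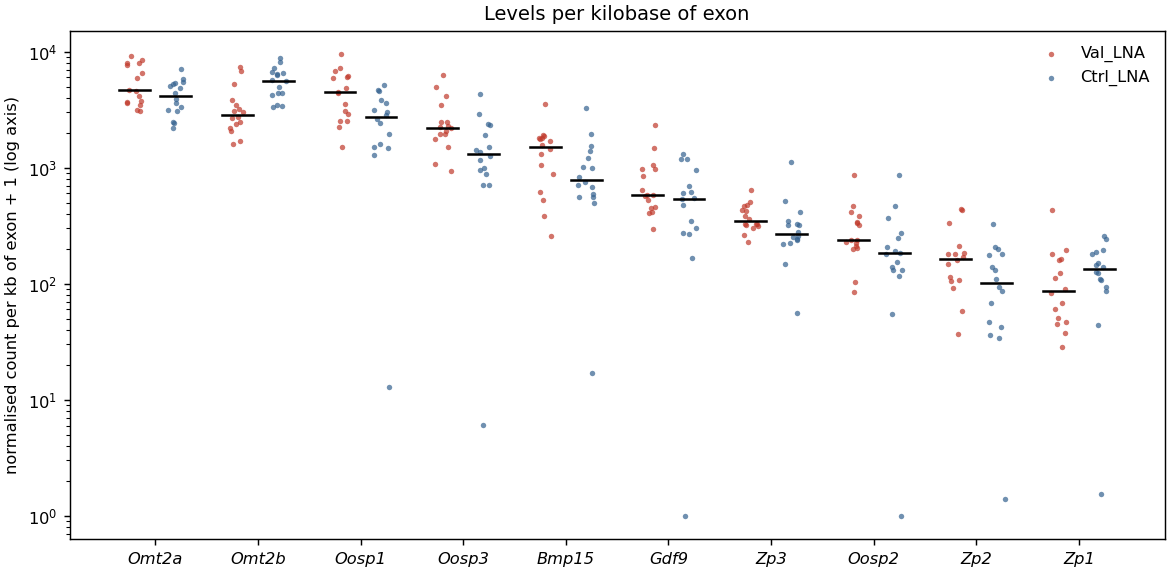
Normalised count per kilobase of exon plus 1 (log axis) in each embryo, with Val_LNA left and Ctrl_LNA right for each gene and bars at the group medians. The Omt2b bars lie at 2862 in Val_LNA and 5619 in Ctrl_LNA, and the Zp1 bars, at the low end, at 85.3 in Val_LNA and 132 in Ctrl_LNA.

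Many pairs of the 10 transcripts were correlated across embryos. How often pairs drawn from all genes pass was not computed, so the counts below are a description only. With the group means removed, 24 of 45 pairs passed by Spearman rho (22 positive, 2 negative) and 22 by Pearson r, at a permutation p adjusted over the 45 pairs under 0.05. Without Ctrl_LNA 48 the numbers were 24 (all positive) and 25, and the pairs were not all the same. Oosp1 and Omt2a had rho = 0.691 and r = 0.135 with all 32 embryos. Leaving out Ctrl_LNA 48 made these 0.915 and 0.916, the highest of the 45 pairs there. Gdf9 and Omt2a went from rho = 0.591 and r = 0.064 to 0.823 and 0.822. With centring on the median gene, Ctrl_LNA 48 included, they were 17 (16 positive, 1 negative) and 15. All values of an embryo share one library and one depth. Gdf9 and Oosp1 had rho = 0.861 and r = 0.960 (adjusted permutation p = 0.00015 and 5.6e-05). For that pair r was 0.792 without Ctrl_LNA 48, 0.829 without the 2 embryos farthest from the Gdf9 median, and 0.730 and 0.983 in the lower and upper runs. Gdf9 and Bmp15, whose proteins can act as a heterodimer, had rho = 0.612 and r = 0.844 (adjusted permutation p = 0.000777 and 9e-05). There r was 0.559 without Ctrl_LNA 48, 0.573 without the 2 farthest embryos, and 0.774 and 0.958 within the lower and upper runs. With centring on the median gene the pair no longer passed (rho = 0.380, r = 0.307, adjusted permutation p = 0.0690 and 0.125).

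Zp3 ran the other way in the 2 negative pairs. It correlated negatively with Gdf9 (rho = -0.44, r = -0.62, adjusted permutation p = 0.0240 and 0.0363) and with Zp1 (rho = -0.41, r = -0.55, adjusted permutation p = 0.0368 and 0.0518). Without Ctrl_LNA 48 both pairs missed the threshold, with rho = -0.36 for each (adjusted permutation p = 0.0842 and 0.0767). With the remaining transcripts Zp3 had rho from -0.25 (Oosp1) to 0.06 (Oosp2), and none of these passed. Without Ctrl_LNA 48 that range was -0.34 (Omt2b) to 0.20 (Oosp2). For Zp3 with Gdf9 and with Zp1, r was 0.07 and 0.19 within the lower runs, and -0.80 and -0.76 within the upper runs, or -0.37 and -0.30 there without Ctrl_LNA 48. With centring on the median gene Zp3 and Gdf9 passed (rho = -0.55, r = -0.74, adjusted permutation p = 0.00562 and 0.00686), and Zp3 and Zp1 did not (rho = -0.38, adjusted permutation p = 0.0564). The centred correlations were computed only with Ctrl_LNA 48 included, so they give no value for either pair without it. Zp1 and Zp2 had rho = 0.329 (adjusted permutation p = 0.100) and r = 0.710 (adjusted permutation p = 0.0216), and r was 0.183 without Ctrl_LNA 48 and 0.270 without the 2 farthest embryos.

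**Figure D5:**
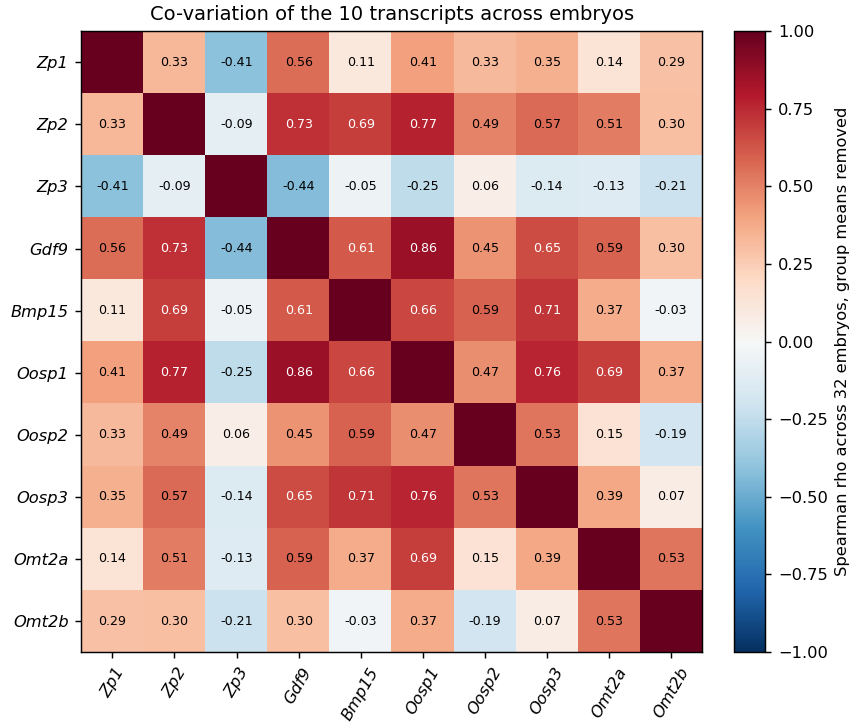
Spearman rho between the 10 transcripts across 32 embryos, group means removed (red positive, blue negative). Gdf9 and Oosp1 share the highest value (0.86), and the row of Zp3 holds the lowest (-0.44 with Gdf9). Without Ctrl_LNA 48 (not drawn) the highest was that of Oosp1 and Omt2a (0.91).

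For the 4 transcripts with the highest mean level per kb, the most alike genes among 9350 with a mean normalised count of at least 50 were sought by rho over the 32 embryos, as a description. Here the group means were not removed, so rho includes any difference between the groups. Omt2a was most like RP23-269P17.1 and RP23-457I6.1 (rho 0.926 for each), and Omt2b like RP23-343K17.3 (0.908) and Papd7 (0.887). Oosp1 was most like Mfap2 (0.921) and Arhgef39 (0.920). Oosp3 was most like Mgst3 (0.849) and RP23-359O14.2 (0.992), which is the pseudogene that overlaps it, with medians of 185 in Val_LNA and 105 in Ctrl_LNA. Without Ctrl_LNA 48 the rho values of all these named pairs lay between 0.834 and 0.992.

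Around these transcripts, 90 genes of 8 lists were tested by limma, of which 0 passed in the higher and 1 in the lower direction. These are near the shares over all genes given above (0.881% higher and 1.31% lower). At an unadjusted p under 0.05 the numbers were 11 and 8, against 8.88% and 5.85% of all genes. At an adjusted p under 0.05, edgeR gave 0 higher and 1 lower, and DESeq2 gave 2 higher and 3 lower. The all-gene shares at that threshold were 0.186%, 1.08%, 1.32% and 2.17%. The limma call was Smad7, an inhibitor of signalling by the receptors of this ligand family. It fell to a median of 20.9 normalised counts in Val_LNA, against 197 in Ctrl_LNA (means 31.96 ± 33.2 and 184 ± 93.8, SD, n = 16 each), with a log2 fold change of -3.32 (SE 0.73, limma adjusted p = 0.00764), and -3.72 without Ctrl_LNA 48. Of 22 tested genes of GDF9 and BMP15 signalling it was the 1 called, and the list median was 0.46 (0.38 without Ctrl_LNA 48). Smad3, which carries the GDF9 signal into the nucleus, had medians of 897 in Val_LNA and 595 in Ctrl_LNA (log2 fold change 1.25, limma adjusted p = 0.319, and 0.68 without Ctrl_LNA 48). Furin, a protease that matures such ligands, had medians of 15.5 in Val_LNA and 63.8 in Ctrl_LNA (log2 fold change -1.97, limma adjusted p = 0.102, and -1.74 without Ctrl_LNA 48).

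Of the 10 tested genes of zona processing and gamete binding, 0 were called in limma, and the list median was -0.62 (-0.70 without Ctrl_LNA 48). At an unadjusted p under 0.05, 3 were lower, against 5.85% of all tested genes. Furin is one of these 3 and is on the signalling list too. With edgeR 2 were lower at an unadjusted p under 0.05 (all genes 7.22%), and the list median was -0.30. Cd9, the egg surface protein needed for sperm fusion, had medians of 195 in Val_LNA and 373 in Ctrl_LNA (log2 fold change -0.83, limma adjusted p = 0.168, and -0.71 without Ctrl_LNA 48). Of the 7 tested oocyte transcription factors 0 were called, and 0 of 7 were at an unadjusted p under 0.05, with a list median of 0.79. Without Ctrl_LNA 48 the list median was 0.36, again with 0 called. There 2 of the 7 were lower at an unadjusted limma p under 0.05 (all genes 8.45%). Nobox, a regulator of oocyte genes, had medians of 509 in Val_LNA and 354 in Ctrl_LNA (log2 fold change 0.79, limma adjusted p = 0.529, and 0.36 without Ctrl_LNA 48).

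The 25 other oocyte transcripts summed to a median of 80000 normalised counts in Val_LNA and 66034 in Ctrl_LNA. Limma called 0 of them, with 3 higher at an unadjusted p under 0.05 (all genes 8.88%). Their median log2 fold change was 0.72, close to the 0.75 of the 10 transcripts, and 0.44 without Ctrl_LNA 48. Btg4, an adaptor of maternal RNA decay, had medians of 6363 in Val_LNA and 4256 in Ctrl_LNA (log2 fold change 0.66, limma adjusted p = 0.292, and 0.68 without Ctrl_LNA 48). The 12 zygotic transcripts had a list median of 0.90 (0.62 without Ctrl_LNA 48) with 0 called in limma and 4 higher at an unadjusted p under 0.05 (all genes 8.88%). Zfp352 had medians of 2687 in Val_LNA and 1872 in Ctrl_LNA (log2 fold change 0.62, limma adjusted p = 0.143, and 0.64 without Ctrl_LNA 48).

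Of the other cell type lists, 4 of 15 granulosa and cumulus markers, 3 of 10 sperm transcripts and 8 of 10 blastocyst markers could be tested. In limma 0 were called, with list medians of -0.51, 0.13 and 0.20. Without Ctrl_LNA 48 these medians were -0.60, 0.04 and 0.07. At an unadjusted p under 0.05 there were 1 higher and 1 lower among the granulosa markers, 0 among the sperm transcripts and 2 lower among the blastocyst markers. Over all tested genes 8.88% were higher and 5.85% lower at that threshold. Tnfaip6, a protein of the expanding cumulus matrix, had a median of 23.2 in Val_LNA and 1.98 in Ctrl_LNA (log2 fold change 2.03, limma adjusted p = 0.107, and 1.92 without Ctrl_LNA 48). Kitl, the ligand of the KIT receptor, had a median of 0 in Val_LNA and 19.5 in Ctrl_LNA (log2 fold change -2.45, limma adjusted p = 0.0886), and without Ctrl_LNA 48 it was called lower (-2.66, limma adjusted p = 0.0374).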

How the data were processed

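Single late 2-cell embryos were sequenced from polyadenylated RNA by template switching, PCR amplification and tagmentation, per the labels' protocols. The protocols name no molecular identifiers, so a PCR copy counts as a read and the limit given for 0 reads covers counting error only, and the strand of the RNA is not marked. Bowtie2, STAR, SAMtools and DESeq2 are the tools, and mm10 is the build, that the submitters' processing notes name. Their versions, the annotation and the handling of reads matching several genes were not given in the sources. The deposited signal per gene is a count that the authors divided by a DESeq size factor, per the file headers, and the deposited size factors are ratios that the authors computed per embryo. Multiplying the deposited values by them gave whole reads for 1095136 of 1095136 values (100.0%; largest distance 0.00855, tolerance 0.00922).

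The main test was limma 3.58.1 (R 4.3.3; trend and robust options, no covariates) on log2(normalised count + 1), Val_LNA minus Ctrl_LNA, with Benjamini-Hochberg adjustment over the 15559 genes with at least 10 in at least 8 embryos. It understates changes of low genes. edgeR 4.0.16 and DESeq2 1.42.0 were run on the recovered reads. Single values were tested by two-sided permutation of embryos (100000 resamples, or all regroupings where n was below 10). Gene identifiers matched GENCODE M21 for 34179 of 34223 genes, versions ignored. Python 3.11.15, numpy 2.4.6, scipy 1.17.1, pandas 2.3.3, matplotlib 3.10.9 and Biopython 1.88 were used.

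The 10 transcripts and the 8 gene lists were chosen with earlier results of these data known. Named besides the 10 were, per list, up to 2 tested genes with the smallest p and the 1 with the highest mean, of which a selection is printed, and the 2 genes most alike to each of the 4 transcripts with the highest level per kb. Foxl2, Fshr and Cyp19a1 were named after their values were seen.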

Additional observations from a re-analysis of the deposited data

How the results depend on the processing

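Omt2b was lower in every alternative run and was called in each of the 32 fits that left out 1 embryo (-0.90 to -0.75, limma adjusted p 0.00225 to 0.0212). It was not called with centring on the median gene (-1.26, adjusted p = 0.168), in the lower runs (-0.89, 0.136), in the upper runs (-0.73, 0.353) or there without Ctrl_LNA 48 (-0.61, 0.283, chosen after seeing the data). The run fits hold 8 embryos or fewer a group. For the rest the cause was not tested. The sign turned for Omt2a (-0.086) and Zp3 (-0.037) with centring, for Bmp15 in the lower runs (-0.14) and for Zp1 in the upper runs (0.12). With centring, 6 of the 10 were positive. With centring and without Ctrl_LNA 48, 8 of the 10 were positive, as in the main fit. There 1 of the 10 was called lower, against 436 of 15543 tested genes. Array weights called Zp1 lower (-0.96, limma adjusted p = 0.0445) and Zp3 higher (0.59, limma adjusted p = 0.0455), which made 1 higher and 2 lower of the 10. The 10 had 0 lower with centring, in the lower runs, in the upper runs and in the upper runs without Ctrl_LNA 48. Pairs correlated by rho were 24, 24 without Ctrl_LNA 48 (not all the same pairs) and 17 with centring. The fit without the 2 farthest embryos gave no count of pairs. The Omt2b share of the pair differed by -21.6 to -17.2 points in the 4 subsets tested.

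All genes called higher numbered 137, and 29 with edgeR, 206 with DESeq2, 61 with centring, 87 without a filter, 2 in the upper runs and 353 with array weights. Leaving out Ctrl_LNA 48 as well gave 89 with edgeR, 266 with DESeq2 and 7 in the upper runs. Those called lower numbered 204, and 338 with DESeq2, 300 with centring, 254 with a pseudocount of 5, 83 in the lower runs, 33 in the upper runs and 564 with array weights. Leaving out Ctrl_LNA 48 as well gave 244 with edgeR, 402 with DESeq2, 124 in the upper runs and 436 with centring. Leaving out 1 embryo gave 100 to 245 higher and 176 to 406 lower, the highest of both without Ctrl_LNA 48. Of the 90 list genes, 2 were higher with DESeq2, with array weights and with DESeq2 without Ctrl_LNA 48. Lower were 3 with DESeq2, 2 with centring, 2 with a pseudocount of 5, 0 in the upper runs and 4 with array weights. Without Ctrl_LNA 48, lower were 2 with edgeR, 3 with DESeq2 and 2 with centring. Over all genes 1.32% were higher with DESeq2 and 2.27% with array weights. The all-gene shares called lower were 2.17% with DESeq2, 1.93% with centring, 0.212% in the upper runs and 3.62% with array weights. Leaving out 1 embryo gave 0 to 1 higher and 1 to 2 lower.

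No paired analysis was possible because the groups share no replicate numbers. Values near 0 in Ctrl_LNA 48 rest on 0 to 47 reads.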
